A study of Mus musculus with 12 samples.

Results

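Igf2, H19 and Igf2bp1 are genes of fetal growth, and their H3K4me3 domains are described here across embryonic and adult intestinal epithelium of the mouse. The 3 genes were chosen by measured values from these same libraries, namely a long stretch of H3K4me3 in the embryonic lists and little or none in the adult lists. The difference between adult and embryonic cells is therefore given as a description with no test, and no p-value is given for any value below. For each gene the peaks overlapping a set window on the mouse build mm9 were taken from every library's list. The windows were chr7:149830000-149858000 for Igf2, chr7:149755000-149770000 for H19 and chr11:95855000-95875000 for Igf2bp1. They held between 0 and 6 peaks of lists that ran to between 11111 and 17658 peaks. After all 8 lists were merged wherever peaks touched, the 3 genes accounted for 4 of 24352 regions, since H19 had a long and a short one.

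H3K4me3, histone H3 trimethylated at lysine 4, marks promoters that are active or poised, and it was measured by chromatin immunoprecipitation and sequencing with an antibody from Millipore. The 4 groups had 2 H3K4me3 libraries each, which the design text calls biological duplicates. Enterocytes and intestinal stem cells (ISC) came from the small intestine of adults at P60, described as Lgr5EGFP-Cre-ERT males, an allele that the labels do not name for the embryos. ISC were sorted from crypts for high Lgr5-EGFP, so that they were defined by a reporter of 1 gene, and enterocytes were sorted as EpCAM+ CD31- CD45- cells that excluded DAPI. Embryonic epithelium at E14.5 and E12.5 was sorted with the same surface markers, and its sex is not given. All groups were of mixed C57BL/6 CD1 strain. How many animals were pooled per library is not given in the sources used here. Each group had 1 input library, which served as the control of both of its libraries in the authors' peak calls and was not analysed here otherwise. The labelled cell types were not checked against their defining markers, because no gene positions on mm9 other than the windows were used.

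Igf2 encodes a secreted growth factor that drives growth of the fetus, and in mouse it is transcribed from several alternative promoters, from the paternal allele in most tissues. H19, its neighbour on chromosome 7, produces a long noncoding RNA from the maternal allele, and a control region between these genes that is methylated on the paternal allele governs both. Igf2bp1 encodes an RNA-binding protein of fetal tissues that binds Igf2 mRNA among others, and it is low in most adult tissues. The peak lists do not separate the parental alleles. A mark carried by fewer cells and a weaker mark in every cell cannot be told apart in these bulk samples.

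Igf2 had the most covered length of the 3 genes in every embryonic library but E12.5 replicate 1, and RefSeq gives 4 start sites for this gene, so the sequences around them are shown. Each run is in the direction of transcription and holds the 250 bases before and the 50 bases from a start site on the minus strand of GRCm38.p6. Every CpG is in capitals. The starts are numbered in the direction of transcription, and start 2, start 3 and start 4 lie 5545, 8012 and 9320 bp beyond start 1. The windows are chr7:142666767-142667066 for start 1, chr7:142661222-142661521 for start 2, chr7:142658755-142659054 for start 3 and chr7:142657447-142657746 for start 4.
Igf2 start 1: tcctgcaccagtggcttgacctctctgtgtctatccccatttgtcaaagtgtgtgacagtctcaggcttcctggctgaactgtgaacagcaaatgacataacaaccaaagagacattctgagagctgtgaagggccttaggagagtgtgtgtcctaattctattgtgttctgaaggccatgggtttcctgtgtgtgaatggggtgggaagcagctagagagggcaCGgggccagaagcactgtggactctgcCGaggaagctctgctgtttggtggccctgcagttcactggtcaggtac
Igf2 start 2: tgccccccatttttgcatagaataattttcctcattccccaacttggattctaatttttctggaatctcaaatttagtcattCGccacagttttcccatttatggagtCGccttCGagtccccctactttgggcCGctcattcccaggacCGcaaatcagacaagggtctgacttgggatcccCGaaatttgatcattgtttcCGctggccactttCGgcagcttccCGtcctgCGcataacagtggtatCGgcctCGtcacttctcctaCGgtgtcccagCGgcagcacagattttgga
Igf2 start 3: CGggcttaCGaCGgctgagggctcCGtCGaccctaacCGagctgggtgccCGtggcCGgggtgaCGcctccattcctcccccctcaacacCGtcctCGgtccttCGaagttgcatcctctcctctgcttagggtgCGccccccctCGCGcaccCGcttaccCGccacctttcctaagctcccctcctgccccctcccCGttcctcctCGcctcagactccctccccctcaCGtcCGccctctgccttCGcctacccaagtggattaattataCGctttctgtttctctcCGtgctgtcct
Igf2 start 4: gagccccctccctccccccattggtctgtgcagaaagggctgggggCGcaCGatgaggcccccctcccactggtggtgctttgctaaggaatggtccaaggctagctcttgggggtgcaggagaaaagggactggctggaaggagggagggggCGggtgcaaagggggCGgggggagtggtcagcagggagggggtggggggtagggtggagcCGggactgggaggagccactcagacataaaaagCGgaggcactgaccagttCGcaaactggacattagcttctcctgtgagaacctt

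The 4 sequences differ in CpG content. Start 1 has 2 CpG in its 300 bases, start 2 has 14, start 3 has 24 and start 4 has 7. Over 32851 RefSeq promoters of the same length the median was 7 CpG, with quartiles of 3 and 20. At least as many CpG as at start 3 were found in 20.0% of those promoters, whereas 85.9% had at least as many as start 1. The GC content was 52.3%, 49.7%, 64.7% and 63.3% from start 1 to start 4. The letters GGGCGG, the core of a GC box, were present on either strand at start 3 and start 4 and in 35.7% of all promoters, and each match holds 1 of the counted CpG. The letters TATAAA were found on neither strand of any of the 4, against 13.6% of all promoters. These sequences belong to another build than the peaks, and they were not placed on the peaks. Whether the single Igf2 peaks of 11105 and 10809 bp at E14.5 take in all 4 starts, which span 9320 bp, was therefore not determined.

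Depth and list length varied between libraries. The lists rest on between 12821255 and 43259380 tags, and their median peak was between 894 and 1279 bp long. In ISC and in enterocytes the second library was the deeper one, with 25547814 against 13355462 tags in ISC and 22137910 against 12821255 tags in enterocytes. An absent peak means that none was reported at the depth of that library, and it does not show that the mark was missing.

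Igf2 had one of the longest H3K4me3 peaks of both E14.5 lists and of E12.5 replicate 2, but not of E12.5 replicate 1. Peaks covered 4150 and 7576 bp of its window in the E12.5 libraries, 11105 and 10809 bp in the E14.5 libraries, 0 and 586 bp in the ISC libraries, and 0 and 1478 bp in enterocytes. Every embryonic library had more covered length than every adult library, and in both adult cell types the shallower library had none. The mean was 516 ± 698 bp in adult libraries and 8410 ± 3259 bp in embryonic libraries (SD, n = 4 each), a ratio of 0.0614. Covered length at E14.5 filled 39.7% and 38.6% of the Igf2 window.

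The Igf2 domain was broken into pieces at E12.5 and was a single block at E14.5. Replicate 1 at E12.5 had 4 peaks, of 2279, 1272, 323 and 276 bp, separated by gaps of 1091, 888 and 922 bp. Replicate 2 at E12.5 had a peak of 6966 bp and, after a gap of 1339 bp, one of 610 bp. The more broken of these came from 15053166 tags and the other from 22696869 tags, and the part of depth in this was not tested. At E14.5 each library had 1 peak, at chr7:149840171-149851275 and chr7:149840528-149851336, whose starts were 357 bp apart and whose ends were 61 bp apart. The E14.5 replicates shared 96.3% of the positions called in either, and the E12.5 replicates shared 47.0%. Positions that each E14.5 library called and neither E12.5 library did came to 2770 bp, and no position was called at E12.5 that both E14.5 lists lacked. All 4 embryonic libraries called 3748 bp in common, in stretches of 2279, 1272 and 197 bp.

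The adult peaks at Igf2 lay inside the embryonic domain. ISC replicate 2 had 1 peak at chr7:149845070-149845655. Enterocyte replicate 2 had a peak at chr7:149844826-149845694 and a further one of 609 bp at chr7:149846561-149847169. The ISC peak lay wholly within the first of these, so that 586 bp were called in both cell types. Of the 1478 bp called in any adult library, 1006 bp were called in all 4 embryonic libraries as well. The authors' fold enrichment over input of these adult peaks was 2.80 in ISC replicate 2 and 3.65 and 2.69 in enterocyte replicate 2. It was 8.61 and 11.4 for the E14.5 blocks and 4.36 and 4.52 for the longest E12.5 peaks, and the 4 shorter E12.5 peaks, with 3.04 to 3.66, were about level with the adult ones. These values belong to single peaks of separate lists and are given side by side only.

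**Figure D1:**
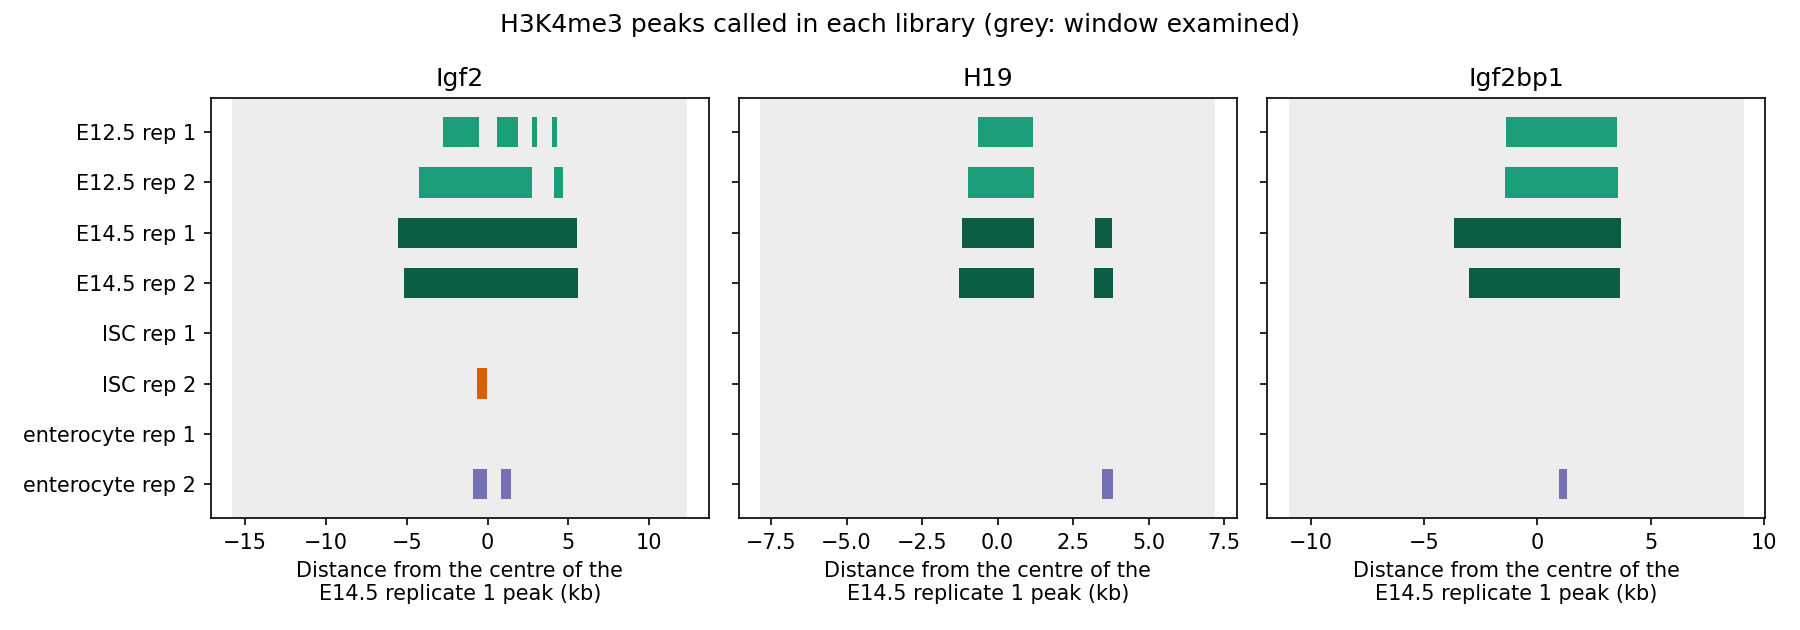
Each bar is an H3K4me3 peak of 1 library, drawn against the distance in kb from the centre of the longest peak of E14.5 replicate 1 on mm9, with the window examined in grey and higher coordinates to the right. Igf2 appears in 4 and 2 pieces at E12.5 and as 1 block in each E14.5 library, and the adult libraries keep short peaks in ISC replicate 2 and enterocyte replicate 2 alone.

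H19 had a shorter domain than the other genes at E14.5. Peaks covered 1843 and 2164 bp of the H19 window in the E12.5 libraries, 2953 and 3126 bp in the E14.5 libraries, 0 and 0 bp in the ISC libraries, and 0 and 368 bp in enterocytes. The 4 embryonic libraries were all above the 4 adult ones, of which 3 had no H19 peak. The mean was 92 ± 184 bp in adult libraries and 2521.5 ± 616 bp in embryonic libraries (SD, n = 4 each), a ratio of 0.0365. Of these 3 genes it was the one whose main region was called in all embryonic libraries and in no adult library.

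The H19 window held a main peak and, in some libraries, a short one towards Igf2. The main peak ended between positions 149764002 and 149764023 in all 4 embryonic libraries, a spread of 21 bp, and started between 149761555 and 149762160, a spread of 605 bp. It was 2386 and 2469 bp long at E14.5 and 1843 and 2164 bp long at E12.5. The 1843 bp of E12.5 replicate 1, at chr7:149762160-149764002, were called in all 4 embryonic libraries and in none of the adult ones. The short peak lay 2027 and 1977 bp beyond the main one in the E14.5 libraries, was 567 and 657 bp long there, and was absent from both E12.5 lists. The H19 peak of enterocyte replicate 2, at chr7:149766268-149766635, lay within the short peak of E14.5 and not within the main one. Whether the short peak lies in the control region between H19 and Igf2 was not determined, since no annotation of mm9 was used. The authors' fold enrichment of the short peak was 2.80 and 3.35 at E14.5 and 3.54 in enterocyte replicate 2, beside 9.10 and 11.8 for the main peak at E14.5.

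Igf2bp1 had a single long block in every embryonic library. Peaks covered 4872 and 4997 bp of its window in the E12.5 libraries, 7408 and 6673 bp in the E14.5 libraries, 0 and 0 bp in the ISC libraries, and 0 and 328 bp in enterocytes. Embryonic and adult libraries did not overlap, and enterocyte replicate 2 was the 1 adult library with an Igf2bp1 peak. The mean was 82 ± 164 bp in adult libraries and 5987.5 ± 1253 bp in embryonic libraries (SD, n = 4 each), a ratio of 0.0137. The E12.5 replicates shared 97.5% of the positions called in either and the E14.5 replicates 90.1%.

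The 2 edges of the Igf2bp1 block differed in how far apart they lay at the embryonic stages. Its upper edge lay between positions 95869438 and 95869647 in all 4 embryonic libraries, with distances of 81 to 209 bp between an E14.5 and an E12.5 library. Its lower edge was at 95862240 and 95862929 at E14.5 and at 95864567 and 95864524 in the E12.5 libraries, which put it 1595 to 2327 bp lower at E14.5. Igf2bp1 is transcribed towards lower coordinates, so this is the edge on its downstream side. Both E14.5 libraries called 1595 bp on this side that neither E12.5 library called, and 81 bp on the other side. The enterocyte peak, at chr11:95866916-95867243, lay within the 4872 bp called in all 4 embryonic libraries. Its fold enrichment in the authors' list was 2.32, beside 12.4 and 16.9 for the block at E14.5 and 5.45 and 6.99 at E12.5.

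**Figure D2:**
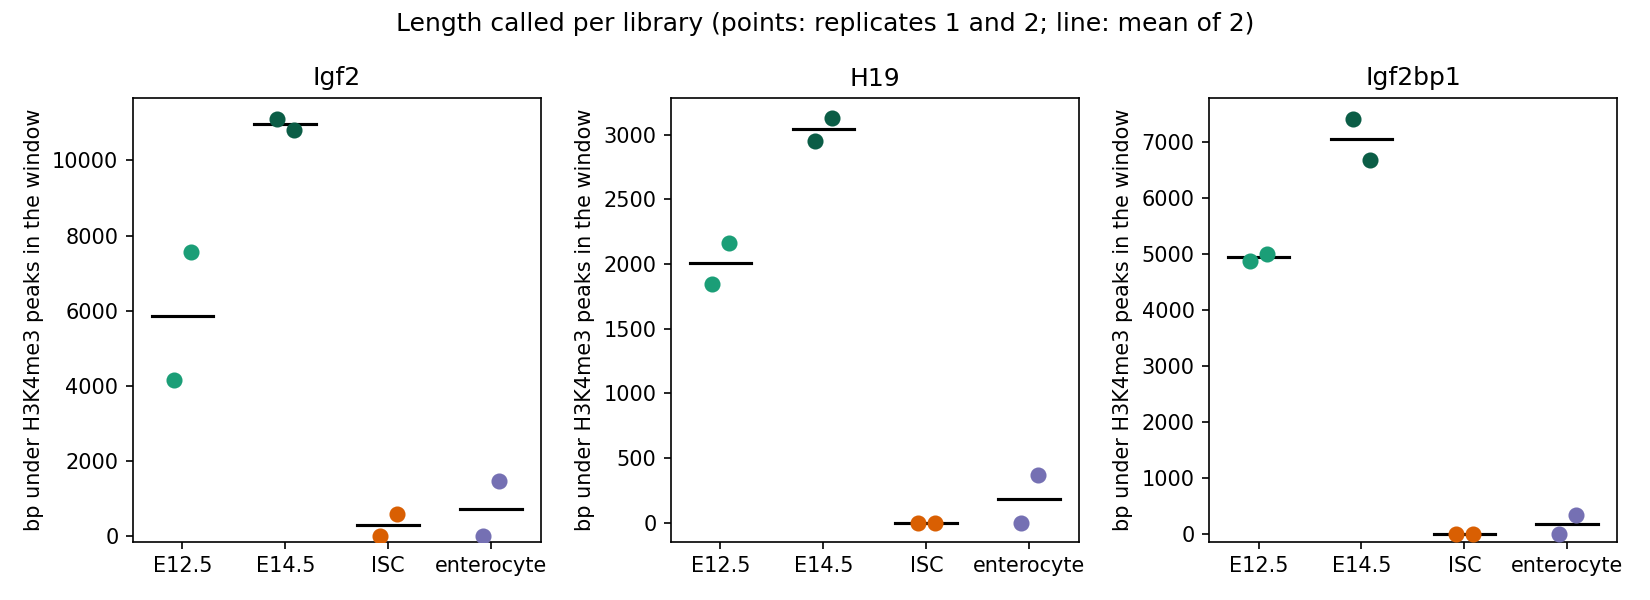
Points give the bp of each window under H3K4me3 peaks in each of the 2 libraries of a group, and lines give their mean, for E12.5, E14.5, ISC and enterocytes from left to right. In unscaled bp the E14.5 libraries are the highest for all 3 genes, and the adult libraries lie between 0 and 1478 bp. When the libraries are scaled, the order of E14.5 over E12.5 turns round for H19 and Igf2bp1. For Igf2 the E14.5 and E12.5 libraries then overlap.

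Length and −log10 q ranked these genes differently within the lists. Rank 1 is the longest peak of a library's list. The longest Igf2 peak ranked 532 of 11111 and 4 of 13693 in the E12.5 libraries, 2 of 16225 and 4 of 17658 in the E14.5 libraries, 12237 of 15617 in ISC replicate 2 and 9783 of 17007 in enterocyte replicate 2. Its place at E12.5 thus differed between replicates, with the longest piece of the fragmented domain at 4.79% of the list in replicate 1 and at 0.0292% in replicate 2. By covered length among merged regions, the whole Igf2 region was number 40 of 10758 called in E12.5 replicate 1 and number 4 of 12526 in replicate 2. The longest Igf2bp1 peak ranked 13 and 19 in the E12.5 libraries, 18 and 27 in the E14.5 libraries, and 14365 in enterocyte replicate 2. All 4 embryonic ranks of Igf2bp1 lay within 0.153% of the top of their list. H19 ranked 1156 and 884 in the E12.5 libraries, 2090 and 1947 in the E14.5 libraries, and 14006 in enterocyte replicate 2. The embryonic H19 peak thus stood between 6.46% and 12.9% of its list.

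By the authors' −log10 q, the significance of enrichment over input and not its size, the Igf2 domain stood near the middle of the embryonic lists. Its highest −log10 q was 5.19 and 7.22 in the E12.5 libraries, 33.7 and 30.7 in the E14.5 libraries, 2.24 in ISC replicate 2 and 5.69 in enterocyte replicate 2. These values stood at 57.1% and 60.1% of the E12.5 lists, 47.6% and 44.3% of the E14.5 lists, 91.4% of the ISC list and 69.7% of the enterocyte list, counted from the highest −log10 q. Among the longest few peaks of 3 embryonic lists, Igf2 was thus near the middle by −log10 q. H19 had a −log10 q of 4.08 and 5.05 in the E12.5 libraries, 44.7 and 37.6 in the E14.5 libraries, and 3.63 in enterocyte replicate 2. It stood at 69.6% and 69.7% of the E12.5 lists, 34.7% and 36.2% of the E14.5 lists and 77.3% of the enterocyte list. Igf2bp1 had the highest −log10 q of these genes in each embryonic library and the lowest in enterocyte replicate 2, with 8.71 and 17.6 in the E12.5 libraries, 66.0 and 58.4 in the E14.5 libraries, and 1.69 in enterocyte replicate 2. Its embryonic peaks stood at 21.8% and 16.6% of the E12.5 lists and 10.9% and 11.8% of the E14.5 lists, and its enterocyte peak at 93.9%.

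**Figure D3:**
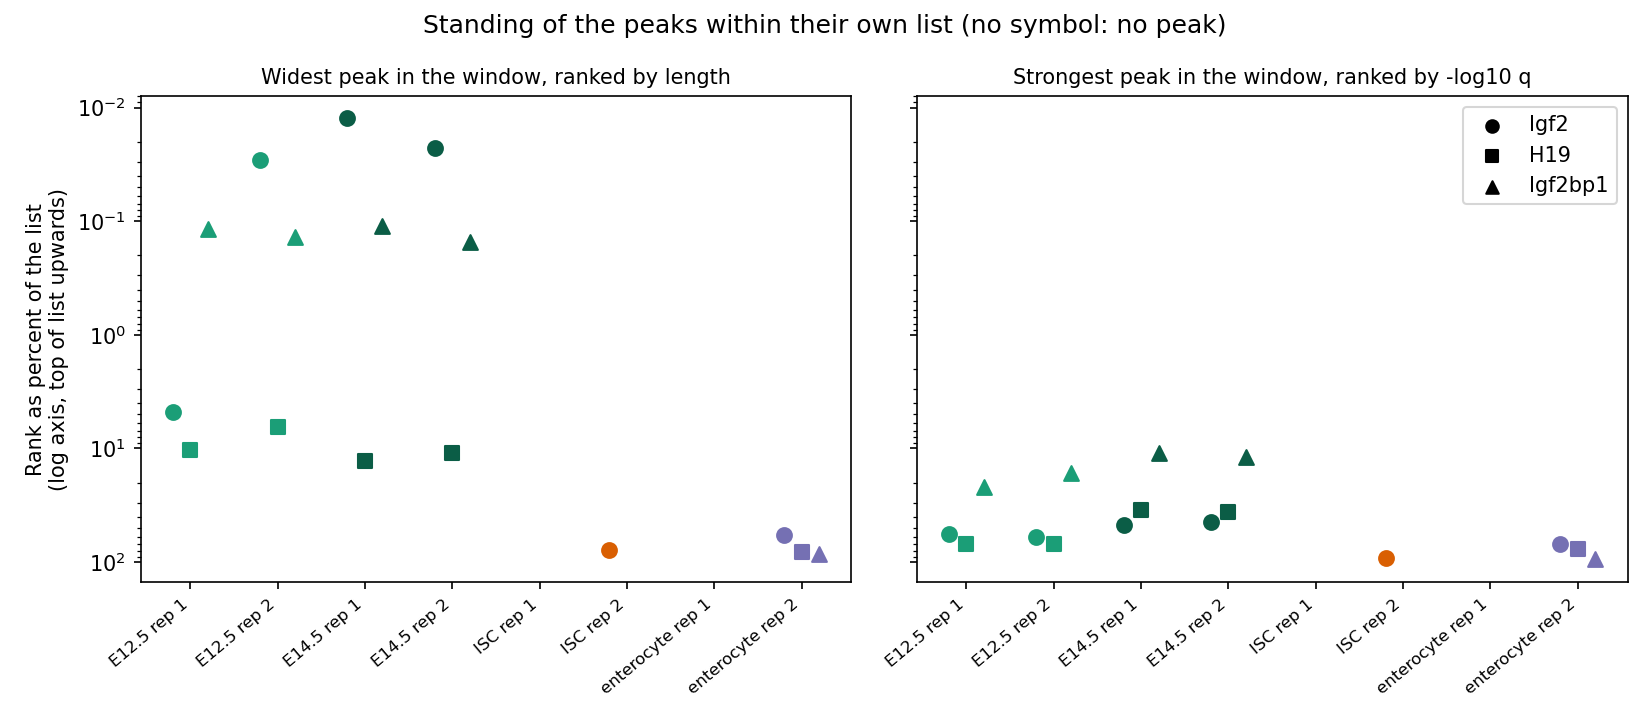
The rank of each gene's longest peak by length (left) and of its highest −log10 q (right) is given as a percent of the library's list on a log axis with the top of the list upwards, for the 8 libraries in the order E12.5, E14.5, ISC, enterocyte. By length Igf2bp1 lies between 0.111% and 0.153% in all embryonic libraries and Igf2 between 0.0123% and 0.0292% in 3 of them, while by −log10 q Igf2 and H19 lie between 34.7% and 69.7% there.

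Adult cells against embryonic epithelium was the contrast by which these genes were chosen, and the background is given with nothing read from it. Of 17679 merged regions called in at least 2 libraries, 862 had less covered length in every adult library than in every embryonic one, which is 4.88%. Among the 4 regions of the 3 genes these were Igf2, the main H19 region and Igf2bp1, and the short H19 region was not among them. A further condition, a peak in all 4 embryonic libraries and in no adult one, held for 365 regions or 2.06%, and for the main H19 region alone of the 4. Ordered by E14.5 covered length within those 862 regions, Igf2 was number 1, Igf2bp1 number 4 and H19 number 135. By the difference in mean covered length, adult minus embryonic, Igf2 with −7894 bp had the largest loss of the 17679 regions and Igf2bp1 with −5905.5 bp the fifth, while the main H19 region with −2215.5 bp was number 48 and the short one with −214 bp number 5360.

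The adult peaks at these genes were all in the deeper libraries, and E14.5 replicate 1 was the deepest of all, so libraries with like numbers of H3K4me3 tags were set side by side. Enterocyte replicate 2, E14.5 replicate 2 and E12.5 replicate 2 had 22137910, 22718162 and 22696869 tags. Igf2 had 1478 bp in that enterocyte library, 10809 bp in the E14.5 library and 7576 bp in the E12.5 library. H19 had 368, 3126 and 2164 bp in the same order, and Igf2bp1 had 328, 6673 and 4997 bp. The enterocyte value was the lowest of each set, in the direction by which the genes were chosen. These 3 libraries were not matched otherwise, with 28191210, 41831672 and 38159421 input tags and lists of 17007, 17658 and 13693 peaks in the same order. ISC replicate 2, with 25547814 tags, was deeper than these and had 586 bp at Igf2 and none at H19 or Igf2bp1. The part of depth in the absence of peaks from the shallower adult libraries was not tested.

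Between E14.5 and E12.5 the unscaled covered length of all 3 genes was higher at E14.5, and so was that of most regions. For Igf2 the mean was 10957 ± 209 bp at E14.5 and 5863 ± 2423 bp at E12.5 (SD, n = 2 each), a difference of 5094 bp. For H19 it was 3039.5 ± 122 bp at E14.5 and 2003.5 ± 227 bp in the E12.5 libraries, a difference of 1036 bp that became −167 bp when libraries were scaled to equal medians over the regions called in all 8. For Igf2bp1 it was 7040.5 ± 520 bp at E14.5 and 4934.5 ± 88.4 bp at E12.5, a difference of 2106 bp that became −791 bp when scaled. The mean Igf2 difference kept its sign and fell to 1270 bp, but the scaled groups overlapped. Scaled E12.5 replicate 2 lay above both E14.5 libraries, and scaled E12.5 replicate 1 lay below them. All 4 regions of these genes were higher in both E14.5 libraries than in both E12.5 libraries before scaling, as were 15151 of 17679 regions or 85.7%, so the count is near that of the background.

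The ratio of E14.5 to E12.5 was set against other regions in the same way. Over 10578 regions called in all 4 embryonic libraries the median ratio of mean covered length was 1.60, with quartiles of 1.37 and 1.95. Igf2 had a ratio of 1.87, which 29.4% of those regions reached or passed. Igf2bp1 had 1.43, reached or passed by 68.3%, and the main H19 region had 1.21, reached or passed by 91.6%. Igf2 and Igf2bp1 lay within the quartiles, above and below the median, and the main H19 region lay below the lower quartile.

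ISC had little or none of the covered length that the 3 genes had at E14.5. Igf2 had 293 ± 414 bp in the ISC libraries and 10957 ± 209 bp at E14.5 (SD, n = 2 each), a ratio of 0.0267, and the 2 groups did not overlap. H19 and Igf2bp1 had no peak in either ISC library, beside means of 3039.5 and 7040.5 bp at E14.5. Lower covered length in both ISC libraries than in both E14.5 libraries was found for all 4 regions of these genes and for 11276 of 17679 regions, or 63.8%. A peak in each E14.5 library and none in ISC was found for both H19 regions and Igf2bp1 and for 2388 regions, or 13.5%. The selection of the genes rests on this contrast too.

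Between enterocytes and ISC no order could be read at these genes. Igf2 had 0 and 1478 bp in enterocytes and 0 and 586 bp in ISC, with means of 739 ± 1045 bp in enterocytes and 293 ± 414 bp in ISC (SD, n = 2 each), and the groups overlapped. H19 had 0 and 368 bp in enterocytes and 0 bp in both ISC libraries. Igf2bp1 had 0 and 328 bp in enterocytes and 0 bp in both ISC libraries. In both cases the enterocyte value rests on 1 library. None of the 4 regions was higher in both enterocyte libraries, as 2806 of 17679 regions or 15.9% were, and none was lower in both, as 3694 regions or 20.9% were. Ordered by mean covered length in unscaled bp, Igf2 was thus highest at E14.5, then at E12.5 and then in the 2 adult cell types. The adult cell types did not differ beyond their spread. H19 and Igf2bp1 followed the same order in unscaled bp, with E12.5 above E14.5 when scaled. At Igf2 the scaled E14.5 and E12.5 libraries overlapped.

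Most regions around the 3 genes were called in some embryonic and some adult libraries or in all 8. Igf2, Igf2bp1 and the short H19 region were also called in some of both. Of all 17679 regions, 8903 were called in all 8 libraries, and 862 or 4.88% were lower in every adult library than in every embryonic one. Within 500000 bp of the Igf2 and H19 windows were 9 other regions, of which 5 were called in all 8 libraries, 1 in embryonic libraries only and 3 in some of both. The nearest, at chr7:149718644-149719836 and 35164 bp from the H19 window, had 0 and 510 bp in the E12.5 libraries, 793 and 999 bp in the E14.5 libraries, 674 and 1018 bp in the ISC libraries, and 531 and 1118 bp in enterocytes. It thus carried H3K4me3 in all 4 adult libraries. Of these 9 neighbours 1 was lower in every adult library than in every embryonic one, at chr7:149469032-149471578, with 1897 and 1965 bp in ISC and 699 and 927 bp in enterocytes, against 2300 and 2251 bp at E14.5 and 2419 and 2454 bp at E12.5. All 4 of its adult libraries thus had a peak.

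Around Igf2bp1 were 26 regions within 500000 bp, of which 8 were called in all 8 libraries, 8 in embryonic libraries only, 2 in adult libraries only and 8 in some of both. Of those in embryonic libraries only, all but chr11:95985409-95986232 were called at E14.5 and not at E12.5. The share of embryonic-only regions among all 17679 is not given here, so nothing is read from their number. A short region lay 1847 bp outside the Igf2bp1 window on the downstream side, where its block reached further at E14.5 in unscaled bp. That region, chr11:95852122-95853153, had 1007 and 857 bp at E14.5 and no peak in the other 6 libraries. On the other side the nearest region, chr11:95895452-95897207, was called in all 8 libraries, with 748 and 951 bp in the E12.5 libraries, 1492 and 1685 bp in the E14.5 libraries, 1086 and 1214 bp in the ISC libraries, and 1552 and 1545 bp in enterocytes. Of these 26 neighbours 2 were lower in every adult library than in every embryonic one, beside 862 of all 17679 regions or 4.88%. The region chr11:95985409-95986232 had no peak in any adult library and between 349 and 736 bp in embryonic ones, and chr11:96212953-96216201 had 700 bp in ISC replicate 2 alone among adults, against 866 to 3228 bp in embryonic libraries.

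**Figure D4:**
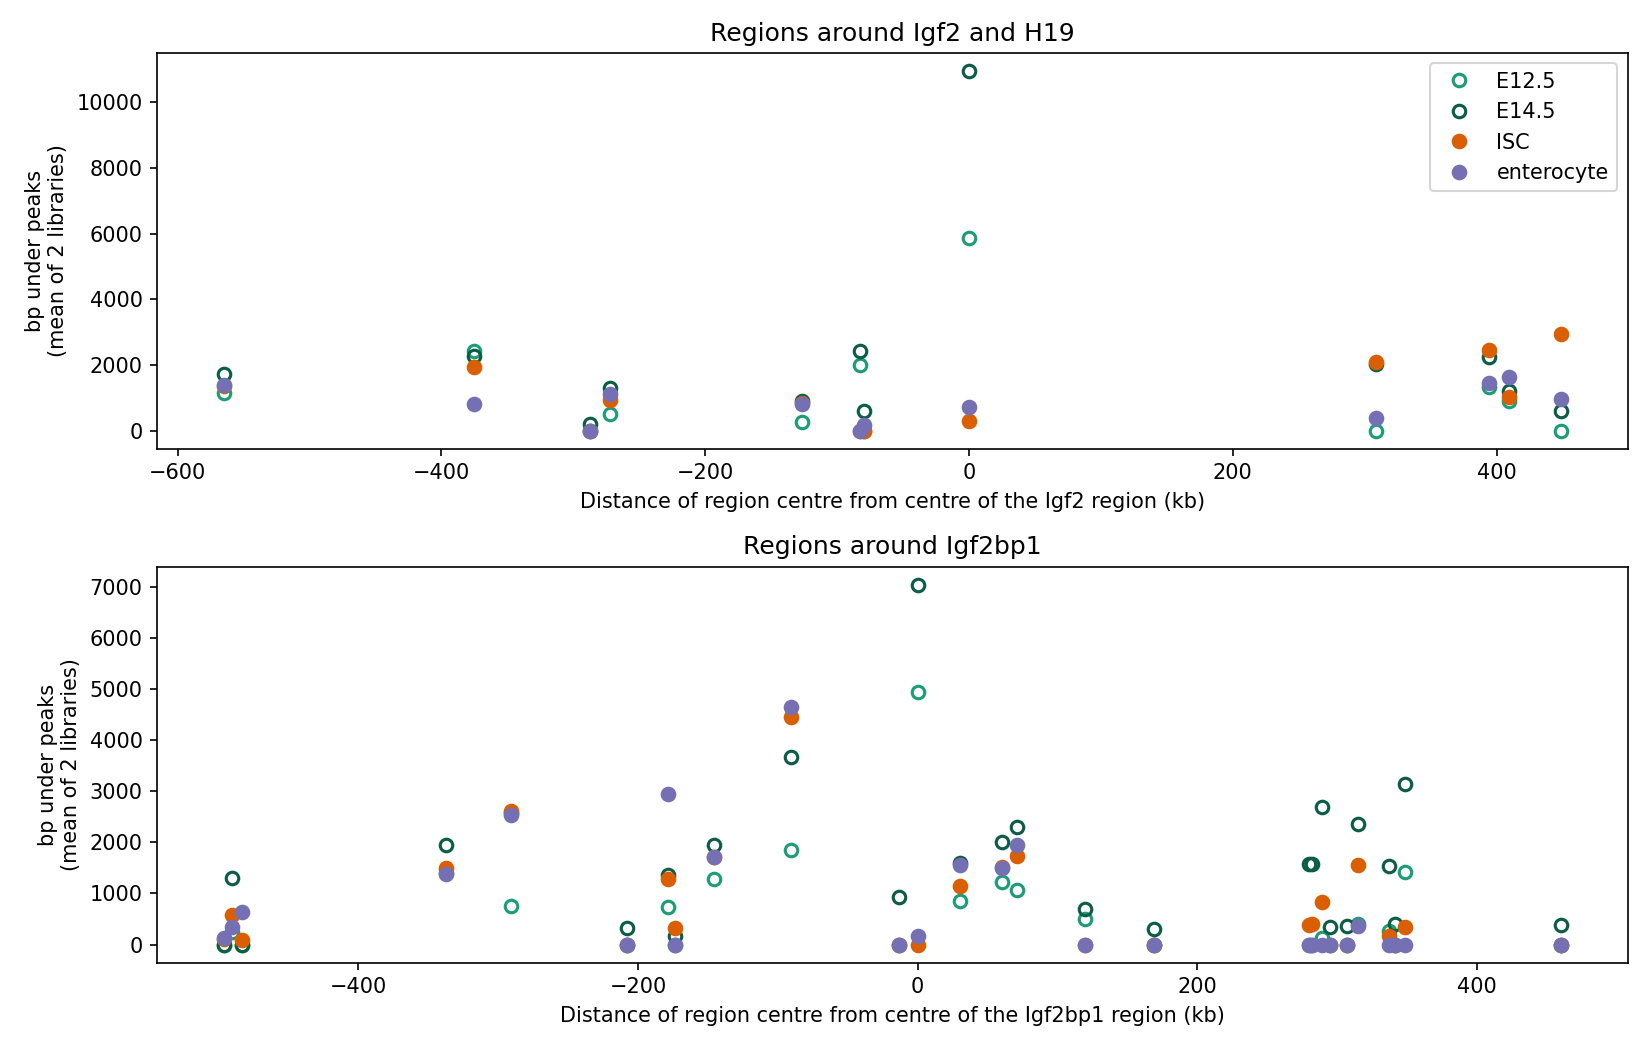
Each symbol is the mean bp under H3K4me3 peaks in the 2 libraries of a group for 1 merged region, against the distance of its centre in kb from the centre of the Igf2 region (top) or the Igf2bp1 region (bottom), with embryonic groups open and adult groups filled. The Igf2 region at 0 kb reaches 10957 bp at E14.5 beside 293 bp in ISC and 739 bp in enterocytes. Peaks in all 8 libraries are found for 5 of the 9 neighbours of Igf2 and H19, 8 of the 26 of Igf2bp1 and 8903 of all 17679 regions.

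Regions elsewhere came close to the H19 regions in their values and less so to Igf2 and Igf2bp1. Likeness was the Euclidean distance over the 8 libraries of log2(covered bp + 200), with smaller values for more alike regions, and the 3 nearest regions were taken for each. The nearest to Igf2, chr6:49160055-49169113, had a distance of 1.54 and covered 5668 and 5965 bp in the E12.5 libraries, 9045 and 8770 bp in the E14.5 libraries, 0 and 1842 bp in the ISC libraries, and 0 and 1475 bp in enterocytes. It was thus also longest at E14.5 in unscaled bp and, among adults, called in the deeper libraries only. The region chr11:18914382-18921110 was the second nearest to Igf2, at 1.99, and the nearest to Igf2bp1, at 2.12, with 6239 and 6444 bp in the E12.5 libraries, 6521 and 6579 bp in the E14.5 libraries, 0 and 357 bp in the ISC libraries, and 263 and 697 bp in enterocytes. The third for Igf2 was chr1:72916749-72921950 at 2.42. Igf2bp1 had no close match, and its other neighbours by value, chrX:117403100-117407188 at 2.17 and chr5:143721701-143725413 at 2.23, had no adult peak and were between 2215 and 3922 bp long in embryonic libraries.

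The main H19 region had much closer matches. The nearest, chr2:168590564-168593087 at a distance of 0.082, had 1889 and 2096 bp in the E12.5 libraries, 2501 and 2479 bp in the E14.5 libraries and no adult peak. The regions chr2:102289873-102292442 at 0.18 and chr11:58761474-58763840 at 0.25 followed, also with no adult peak. For the short H19 region the nearest were chr1:89160746-89161376 at 0.11, chr19:17430573-17431330 at 0.19 and chr9:55388552-55389126 at 0.21. Each of these 3 had a peak in each E14.5 library, in enterocyte replicate 2 and in no other library, as did the short H19 region. Genes at these positions were not named, since no annotation of mm9 was used.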

How the data were processed

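H3K4me3 was profiled in 8 libraries, which sample titles place in 4 groups of 2 (E12.5, E14.5, ISC, enterocyte). The authors deposited 1 peak list per library, replicates not pooled. The caller was MACS 2.0.10.20130712, run for broad peaks against 1 input per group, per the file headers, which also give a q cutoff of 0.01 and 1870000000 as the effective genome size. Reads were handled with bcl2fastq 1.8.4, Bowtie 1.1.2 and SAMtools 1.2 and the build was mm9, per the submitters' processing notes. For each peak the deposited columns hold its position, its pileup signal (coverage by fragments), the p-value and q-value as −log10, and the fold enrichment ratio over input. The smallest −log10 q of any list was 1.005 and the largest of these list minima was 1.09, so broad peaks with a q above that in the header are included. Depth can change which peaks are reported and how long they are, and its effect was not tested.

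Covered length is the bp of a window under the peaks of 1 list, counted in Python 3.11.15 with numpy 2.4.6. Ranks were read within a list. Peaks of all lists that shared 1 bp or touched were merged, and regions called in at least 2 libraries served as background. The interval code was tested on simulated data. The lists give no read counts, so no count model was used, and p-values were not computed because the 3 genes were selected on these values. Regions named beside them are, per region, the 3 nearest by the distance of log2(covered bp + 200), and the neighbours described, which were picked after their values were seen. The members and lists were chosen with earlier results of these data known. Alternatives were a −log10 q of at least 10, lists of 11111 peaks each, peaks counted by midpoint, windows widened by 10000 bp, scaling by library, other merging and minimum numbers of libraries, other pseudocounts, and each library left out. Promoter sequences were matched by symbol in RefSeq (GRCm38.p6): Igf2 had 4 entries, and H19 and Igf2bp1 are named only. Other genes of the pathway were not analysed here, since no gene positions on mm9 were used.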

Additional observations from a re-analysis of the deposited data

How the results depend on the processing

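No paired analysis was possible because the values come from no test, none being made on values by which the genes were chosen. Covered length was lower in adult than in embryonic libraries under 13 of 13 alternatives for each gene, and lower in ISC than at E14.5 under 9 of 9. The genes were chosen on this direction and the groups did not overlap, so its sign could hardly change. These counts are thus no support for it. With peaks of a −log10 q of at least 10, no adult library had a peak at these genes, Igf2 and H19 had none at E12.5, and Igf2bp1 had 0 and 4997 bp there. The difference of E14.5 minus E12.5 was then 10957 bp for Igf2, 2427.5 bp for H19 and 4542 bp for Igf2bp1, and for H19 that of adult minus embryonic was −1214 bp and that of ISC minus E14.5 −2427.5 bp. With scaled libraries, E14.5 minus E12.5 was 1270 bp for Igf2, where the scaled groups overlapped, −167 bp for H19 and −791 bp for Igf2bp1. In the same gene order, ISC minus E14.5 was then −8401 bp, −2403 bp and −5570 bp. With lists of equal number, H19 had 424 bp for E14.5 minus E12.5 and −2427.5 bp for ISC minus E14.5, and no adult library had a peak at any of the 3 genes. With windows widened by 10000 bp, which takes in the short neighbouring region called at E14.5, Igf2bp1 had 3038 bp and −7972.5 bp for the same differences. Enterocyte minus ISC at Igf2 ran between −293 bp, without enterocyte replicate 2, and 1185 bp, without enterocyte replicate 1. Of the background counts, regions lower in every adult library were 41 with a −log10 q of at least 10 and 863 to 2272 with a library left out, the highest without E12.5 replicate 1 and 1431 without ISC replicate 2. Regions called in all embryonic and no adult libraries were 12 with that threshold and 365 to 845 with a library left out, the highest without E12.5 replicate 1. Regions called in both E14.5 libraries and not in ISC were 462 among regions of at least 4 libraries, 701 with lists of equal number and 1119 to 3764 with a library left out, at 3764 without ISC replicate 2 and at 1225 and 1119 when E14.5 replicate 1 or replicate 2 was left out. Regions higher in enterocytes than in ISC were 1523 with that threshold and 2934 to 5747 with a library left out, at 5747 without enterocyte replicate 1 and 5730 without ISC replicate 2. Regions lower in enterocytes were 1638 and 3918 to 8406, at 8406 without ISC replicate 1 and 6998 without enterocyte replicate 2. These rules ask for every library of a group, so leaving a library out removes a condition. It can also take a region below the minimum of 2 libraries. The causes of these shifts were not tested. The other values of these differences and counts moved by less than the spread between replicates or within 1.5 times. Neighbours of Igf2bp1 numbered 9 with a −log10 q of at least 10 and 11 within 200000 bp, of which 0 and 1 were lower in every adult library, and those of Igf2 and H19 numbered 3 within 200000 bp, with 0 lower under either setting. Of the 3 regions most like Igf2bp1, 2 were kept with a pseudocount of 50 bp or scaled libraries and 1 with 1000 bp, where Igf2 and the short H19 region kept 2 each.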
